A study of Homo sapiens with 9 samples.

Results

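The BCL2 family regulators described here are 10 genes: the prosurvival genes BCL2L1 and MCL1, the effector genes BAX and BAK1, and the BH3-only genes BBC3, PMAIP1, BCL2L11, BID, BAD and BIK. They were chosen by name from the 19257 genes of the deposited count and FPKM tables, and all 10 were found in both. The 9 RNA-seq libraries came from cells labelled A549, a human lung adenocarcinoma line, in 3 groups of 3. NC cells received the empty Lenti-CRISPR-V2 plasmid and carry the genotype label WT, OGT_KO cells received a Lenti-CRISPR-V2 plasmid directed at OGT, and TR11B_KO cells one directed at TR11B, the UniProt entry name of osteoprotegerin (gene TNFRSF11B). The vector backbone was thus common to all 3 groups. The columns of each knockout share 1 name with a replicate number added, so a guide or clone effect and the knockout cannot be told apart. The labels call the replicates biological but do not say whether they were separate cultures, clones or transductions, so p-values reflect only how far these libraries spread.

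Proteins of the BCL2 family decide whether the outer mitochondrial membrane is opened during apoptosis. BAX and BAK1 form the pores, BCL2L1 (BCL-XL) and MCL1 hold them in check, and BH3-only proteins either neutralise the prosurvival members or activate the effectors. Several BH3-only genes are switched on by stress: BBC3 (PUMA) and PMAIP1 (NOXA) are controlled largely through transcription, whereas BID is cleaved downstream of death receptors and BAD is governed by phosphorylation, so mRNA level is only part of their control.

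Library totals ranged from 38327508 to 42245970 counts. TR11B_KO replicate 2 stood apart, with a scaling (TMM) factor of 0.784 where the other libraries lay between 0.951 and 1.159. Values without it are given for some genes only. The targeted genes were read first. OGT had counts of 967 to 1239 (NC), 927 to 1255 (OGT_KO) and 356 to 716 (TR11B_KO), and fell in TR11B_KO only (−0.99 ± 0.21 on the log2 scale, adjusted p = 0.00393 in edgeR). TNFRSF11B had 3 to 15, 0 to 1 and 0 to 3 counts, too few to be tested. The OGT counts thus do not mark the libraries labelled OGT_KO, and the TNFRSF11B counts do not set TR11B_KO apart from OGT_KO. Every direction given for either knockout rests on the labels. Markers of the labelled line were checked too. The epithelial keratins KRT8, KRT18 and KRT7 were abundant, at 116514 or more counts in every library, but KRT19 had 0 to 17 counts, EPCAM did not exceed 2 counts and CDH1 was at 0 in all libraries. KRT8 (−0.99 ± 0.18, adjusted p = 0.00185 in edgeR) and KRT18 (−0.93 ± 0.22, adjusted p = 0.0109) fell in OGT_KO, and their part in the results was not tested. Of the genes taken as typical of A549, NQO1 passed the filter on low counts with 3976 to 13586 counts, while ALDH1A1 reached 7 counts at most, AKR1C1 6, AKR1B10 4, ALDH3A1 1 and AKR1C2 0. CDKN2A, chosen after its values were seen because A549 is widely described as having lost this gene, had between 4173 and 9775 counts. The cells are therefore called by their label only, in all 3 groups. Fibroblast, endothelial and alveolar type II markers summed to at most 0.139 FPKM in any library, and the leukocyte list to at most 3.73, nearly all of it CD68.

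Promoter sequences are shown for the 4 members that changed in TR11B_KO (BBC3, PMAIP1, BAD and BCL2L1) and for BAX, called only between the knockouts, to set their start regions beside each other. Each is the 250 bases before a RefSeq start in GRCh38.p14, on the strand of the gene and 5′ to 3′. RefSeq entries were matched for 8 of the 10 members, all except MCL1 and BIK. Capitals mark the GC box GGGCGG, the E-box CACGTG, the CCAAT box, the cyclic AMP response element core TGACG and the TATA box TATAAA, each searched on both strands.
BBC3, chr19:47232668-47232917, minus strand: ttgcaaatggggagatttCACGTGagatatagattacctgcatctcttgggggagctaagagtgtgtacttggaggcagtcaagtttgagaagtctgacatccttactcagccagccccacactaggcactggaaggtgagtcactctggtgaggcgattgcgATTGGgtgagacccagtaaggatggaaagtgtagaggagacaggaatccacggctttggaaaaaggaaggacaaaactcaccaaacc
PMAIP1, chr18:59899746-59899995, plus strand: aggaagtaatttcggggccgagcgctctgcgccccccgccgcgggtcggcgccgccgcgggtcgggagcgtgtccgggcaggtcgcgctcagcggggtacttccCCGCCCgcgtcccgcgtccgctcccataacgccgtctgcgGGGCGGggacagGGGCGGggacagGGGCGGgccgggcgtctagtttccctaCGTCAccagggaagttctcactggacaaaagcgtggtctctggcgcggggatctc
BAD, chr11:64284705-64284954, minus strand: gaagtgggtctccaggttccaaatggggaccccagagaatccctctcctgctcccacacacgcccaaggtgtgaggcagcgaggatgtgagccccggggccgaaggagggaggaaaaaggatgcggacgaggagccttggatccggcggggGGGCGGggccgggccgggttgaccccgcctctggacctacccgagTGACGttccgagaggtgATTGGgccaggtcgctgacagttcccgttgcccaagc
BCL2L1, chr20:31723964-31724213, minus strand: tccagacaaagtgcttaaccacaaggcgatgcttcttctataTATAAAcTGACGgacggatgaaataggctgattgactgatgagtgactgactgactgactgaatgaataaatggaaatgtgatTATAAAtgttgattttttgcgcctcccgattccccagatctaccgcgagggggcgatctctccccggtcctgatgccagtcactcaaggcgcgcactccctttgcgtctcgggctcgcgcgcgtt
BAX, chr19:48954625-48954874, plus strand: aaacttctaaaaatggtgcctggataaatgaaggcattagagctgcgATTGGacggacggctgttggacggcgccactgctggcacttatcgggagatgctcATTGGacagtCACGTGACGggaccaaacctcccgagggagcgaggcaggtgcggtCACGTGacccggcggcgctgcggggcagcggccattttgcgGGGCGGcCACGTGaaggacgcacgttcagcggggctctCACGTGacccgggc

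The 5 windows differed widely. PMAIP1 had 72.8% GC, 4 GC boxes and 1 response element core, whereas BBC3 had 49.2% GC, no GC box, 1 E-box and 1 CCAAT box. BAD held 1 GC box, 1 CCAAT box and 1 TGACG. BCL2L1 held 2 TATA boxes and 1 TGACG. BAX held 4 E-boxes, 1 of which overlaps its single TGACG at the capital run CACGTGACG, with 1 GC box and 2 CCAAT boxes. Among 35114 RefSeq windows of the same length, 42.6% held a GC box, 6.35% an E-box, 32% a CCAAT box, 21.2% TGACG and 10.7% a TATA box. BBC3 and PMAIP1, which rose together in TR11B_KO, shared none of these motifs in the windows shown. The BBC3 window lies partly inside the gene, whose span ends at chr19:47232860, whereas the other windows shown lie just outside their genes. Its GC content and motifs are thus not from a region like theirs. BCL2L1 and BAD each have 2 RefSeq entries, of which the first is shown, and GENCODE lists 4 start positions for BBC3, 3 for PMAIP1, 7 for BAD, 8 for BCL2L1 and 6 for BAX, so other starts are annotated that these windows do not cover. A match is a run of letters and not evidence of a bound factor.

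In GRCh38.p14 the prosurvival genes lie at chr20:31664452-31723963 (BCL2L1) and chr1:150574558-150579610 (MCL1), and the effectors at chr19:48954875-48961798 (BAX) and chr6:33572552-33580276 (BAK1). The BH3-only genes lie at chr19:47220824-47232860 (BBC3), chr18:59899996-59904305 (PMAIP1), chr2:111120914-111168445 (BCL2L11), chr22:17734138-17774665 (BID), chr11:64269828-64284704 (BAD) and chr22:43110750-43129712 (BIK). In GENCODE, exons of BAD overlap those of the protein-coding GPR137 on the opposite strand, and exons of BAK1, BCL2L1 and BCL2L11 overlap those of GGNBP1, ABALON and MIR4435-2HG there. MCL1 shares exon sequence with ADAMTSL4-AS1, and BBC3 with MIR3190 and MIR3191. Whether reads were counted by strand, and how reads over shared exons were treated, is not given in the sources used here. Counts of these 6 genes may therefore include reads of their partners or lack shared reads. ADAMTSL4-AS1 and MIR3191 lie on the same strand as MCL1 and BBC3, so counting by strand would not separate them. BAK1 also has the processed copies BAK1P1 and BAK1P2, which are not rows of the tables. Gene-level counts do not separate splice forms such as the long and short products of BCL2L1, MCL1 and BCL2L11.

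Levels of different genes were compared in FPKM, which is scaled to length. BAD and BCL2L1 were the most abundant members in NC, with 216 ± 18.9 and 180 ± 18.0 FPKM (SD, n = 3). The effectors BAX (113 ± 4.99) and BAK1 (98.0 ± 7.07) followed, then BID (38.6 ± 3.95). MCL1 (7.74 ± 0.3), BBC3 (5.08 ± 0.208), PMAIP1 (1.15 ± 0.256), BIK (0.896 ± 0.561) and BCL2L11 (0.306 ± 0.0701) were far lower. The 2 prosurvival mRNAs therefore differed greatly, with every NC library holding more BCL2L1 (159 to 191 FPKM) than MCL1 (7.39 to 7.92 FPKM). Neighbours in the NC order did not overlap between libraries, except PMAIP1 with BIK and BIK with BCL2L11. In OGT_KO the order was unchanged, but MCL1 (6.89 to 9.42 FPKM) and BBC3 (7.69 to 8.27 FPKM) overlapped. In TR11B_KO, BCL2L1 (104 to 118 FPKM) ranked below BAX (121 to 167 FPKM) and overlapped BAK1 (83.1 to 134 FPKM). MCL1 overlapped BBC3 there, and PMAIP1 overlapped BIK.

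**Figure D1:**
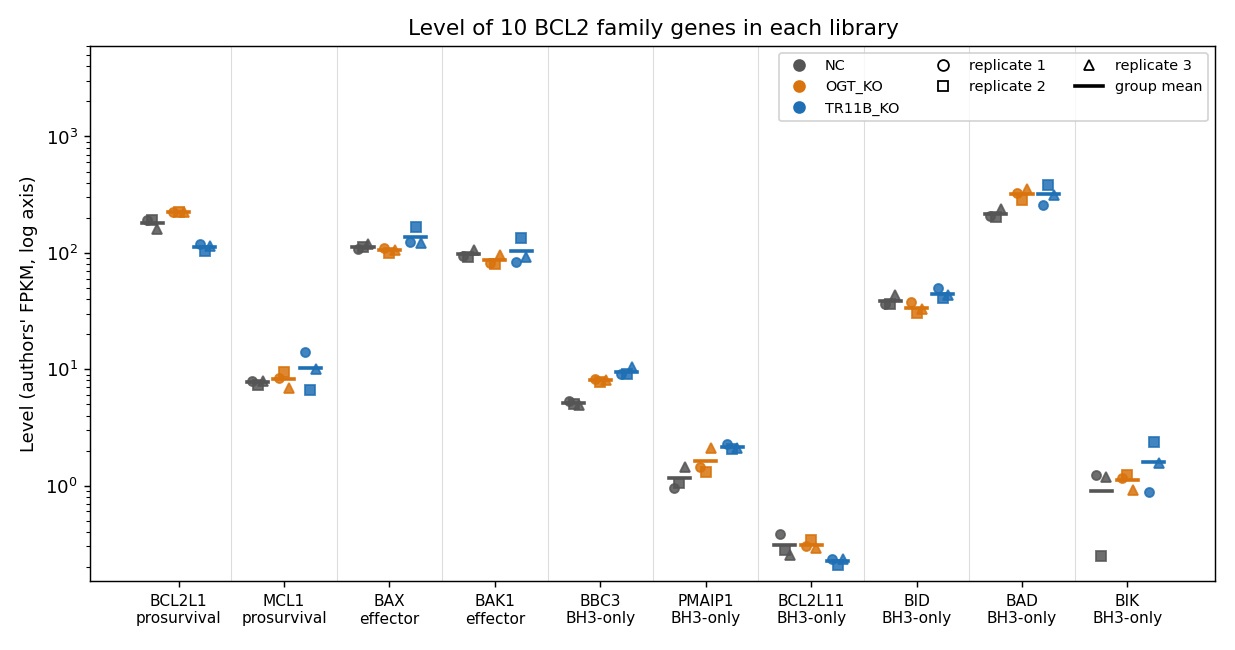
Level of each of the 10 genes in each of the 9 libraries, in the authors' FPKM on a log axis. Points are libraries (shape gives the replicate), bars are group means and colours are groups. BAD and BCL2L1 lead in NC, BCL2L1 is lowest in the 3 TR11B_KO libraries, and BBC3 is above all NC libraries in both knockouts.

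Whether OGT knockout changes these genes was asked by setting OGT_KO against NC. None of the 10 members passed the test in edgeR at an adjusted p under 0.05 (0 higher and 0 lower), against 18.3% of all 12574 tested genes (8.26% higher and 10.1% lower, or 1039 and 1264 genes, which scaling by library totals alone turned to 1369 and 890). Only BBC3 had an unadjusted p under 0.05 (1 of 10), and DESeq2 called 1 member, BBC3. Members differed from NC by a median absolute log2 fold change of 0.25, where all tested genes gave 0.44. Libraries of both groups did not overlap for 6 of 10 members, a share to be read against 49.8% of all tested genes. Levels in the comparisons that follow are CPM, read counts relative to the TMM-scaled library size.

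BBC3, whose product can activate BAX, came closest. Its level was 12.4, 12.0 and 11.5 CPM in NC and 18.5, 15.8 and 18.2 CPM in OGT_KO. All 3 OGT_KO libraries were above all 3 NC libraries. The log2 fold change was 0.55 ± 0.19 (SE), with an adjusted p of 0.0570 in edgeR. DESeq2 gave 0.54 with an adjusted p of 0.0295, and without TR11B_KO replicate 2, which enters the shared estimate of the spread, edgeR gave 0.55 with an adjusted p of 0.00736. BAD, the sensitiser that binds BCL-XL, stood at 250, 247 and 288 CPM in NC against 380, 299 and 408 CPM in OGT_KO. Its groups did not overlap either. The log2 fold change of BAD was 0.47 ± 0.22 (adjusted p = 0.152), and again 0.47 once TR11B_KO replicate 2 was left out (adjusted p = 0.00677). With that library left out, 2 of 10 members were called.

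None of the prosurvival and effector genes passed the test in OGT_KO. BCL2L1 had 554, 561 and 465 CPM in NC and 622, 575 and 628 CPM in OGT_KO, a log2 fold change of 0.21 ± 0.16 (adjusted p = 0.375). Its OGT_KO libraries all lay above those of NC, although the nearest values were 561 and 575 CPM. With length and GC offsets BCL2L1 gave 0.43 (adjusted p = 0.00482) and BAD 0.36 (adjusted p = 0.00746), and limma on filtered log2(FPKM + 1) and log2(FPKM + 0.1) called BCL2L1 at 0.32 and 0.33 (adjusted p = 0.0467 and 0.0480). MCL1 was at 30.9, 29 and 30.9 CPM in NC and 31.0, 32.1 and 25.8 CPM in OGT_KO. These MCL1 groups overlapped (log2 fold change −0.03 ± 0.20, 95% interval −0.46 to 0.40, adjusted p = 0.938). BAX had a log2 fold change of −0.21 ± 0.21 (adjusted p = 0.515), BAK1 of −0.29 ± 0.24 (0.415) and BID of −0.31 ± 0.17 (0.208). All 3 lay below NC in every OGT_KO library. An edgeR fit of OGT_KO and NC alone called BAK1 (−0.28, adjusted p = 0.0438) and BID (−0.31, adjusted p = 0.0363), but not BAX (−0.20, adjusted p = 0.139). PMAIP1 (0.39 ± 0.26), BCL2L11 (−0.09 ± 0.26) and BIK (0.20 ± 0.53) overlapped with NC, at adjusted p of 0.314, 0.846 and 0.837.

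**Figure D2:**
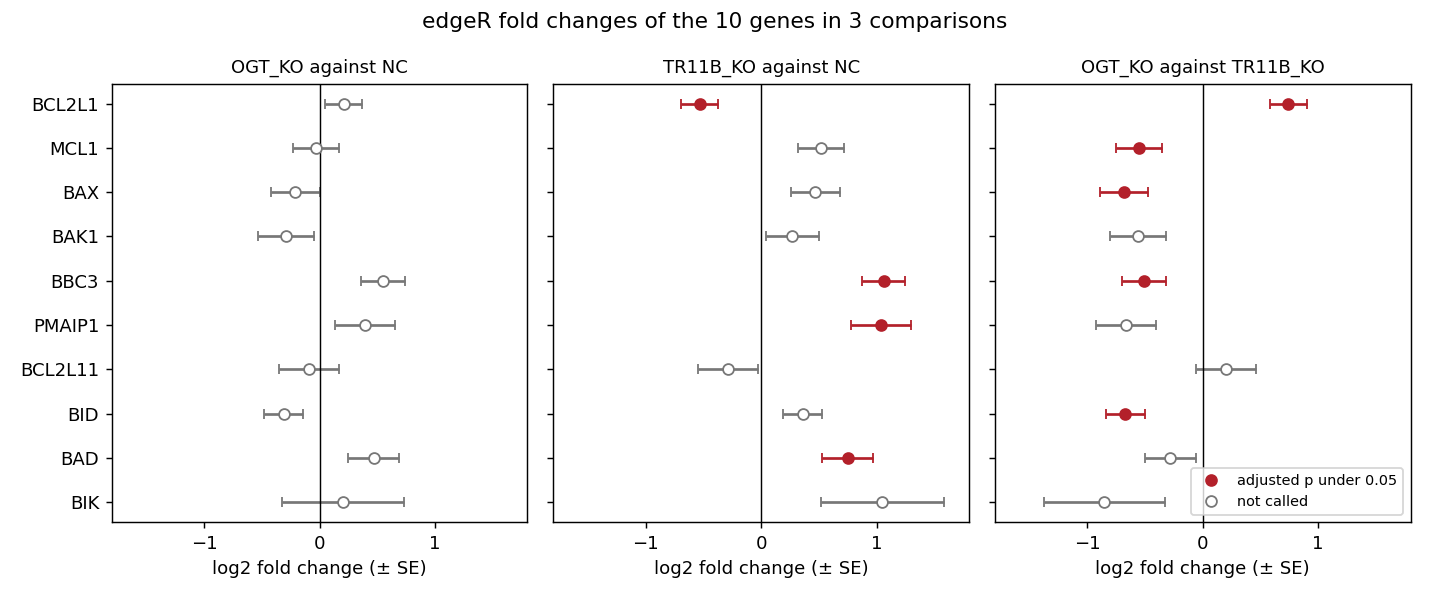
Log2 fold change of each gene in 3 comparisons, with the standard error as a bar. Filled red points passed an adjusted p under 0.05 in edgeR: 0 in OGT_KO against NC, 4 in TR11B_KO against NC and 5 between the knockouts.

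TR11B_KO was set against NC with the same test. Here BBC3, PMAIP1 and BAD rose and BCL2L1 fell, so 4 of 10 members were called, 3 higher and 1 lower. Among all tested genes 27.6% were called, 13.2% higher and 14.3% lower (1666 and 1803 genes, or 1180 and 2030 with library totals alone). The members had a median log2 fold change of 0.50 where all tested genes had −0.01, and a median absolute value of 0.53 against 0.51. Groups of libraries did not overlap for 7 of 10 members and for 40.9% of all tested genes. These counts share the NC libraries with the comparison of OGT_KO. In bulk RNA, a change in every cell and a change in the share of cells cannot be told apart.

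Of the prosurvival genes, BCL2L1 was at 554, 561 and 465 CPM in NC and at 348, 391 and 352 CPM in TR11B_KO. Every TR11B_KO library was below every NC library. BCL2L1 fell by 0.53 ± 0.16 (SE) on the log2 scale (adjusted p = 0.0215 in edgeR). This call was lost without NC replicate 1 (−0.50, adjusted p = 0.0958), NC replicate 2 (−0.49, 0.0991) or TR11B_KO replicate 3 (−0.51, 0.0677), and in 3 of the other settings. MCL1, which encodes a short-lived protein, was at 30.9, 29 and 30.9 CPM in NC and at 55.2, 33.6 and 41.9 CPM in TR11B_KO. Its TR11B_KO libraries spread widely but all lay above NC. The log2 fold change of MCL1 was 0.52 ± 0.20 (adjusted p = 0.0635). Without TR11B_KO replicate 2, the library with the lowest of the 3 values, it was 0.71 (adjusted p = 0.000649), and 5 of 10 members were then called. The 2 prosurvival genes thus lay on opposite sides of NC in CPM. In the authors' FPKM, which carries no TMM scaling, MCL1 of TR11B_KO replicate 2 (6.67) was below the NC range.

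The effector BAX was at 156, 164 and 170 CPM in NC and at 181, 312 and 187 CPM in TR11B_KO. TR11B_KO replicate 2 was far above the other 2. BAX had a log2 fold change of 0.47 ± 0.21 (adjusted p = 0.104), which became 0.20 without that replicate (adjusted p = 0.278). BAK1, the effector that resides in the mitochondrial membrane, was at 216, 213 and 241 CPM in NC and 191, 394 and 223 CPM in TR11B_KO. The groups overlapped, and again replicate 2 was the highest. The value for BAK1 was 0.27 ± 0.23 (adjusted p = 0.423), and −0.08 without that replicate (adjusted p = 0.728).

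Among the BH3-only genes, BBC3 went from 12.4, 12.0 and 11.5 CPM in NC to 21.4, 27.6 and 25.9 CPM in TR11B_KO. The groups were well apart. BBC3 rose by 1.06 ± 0.19 on the log2 scale, a ratio of 2.09 (adjusted p = 0.00146), and passed in 20 of 21 alternatives. PMAIP1, which encodes NOXA, the BH3-only protein that binds MCL1, went from 4.01, 4.47 and 6.06 CPM to 9.57, 11.1 and 9.32 CPM. Its TR11B_KO libraries lay close together, above the NC range. PMAIP1 rose by 1.04 ± 0.26, a ratio of 2.06 (adjusted p = 0.00929), and missed the threshold without NC replicate 1 (0.92, adjusted p = 0.0580) or NC replicate 2 (0.98, adjusted p = 0.0514). BAD went from 250, 247 and 288 CPM to 316, 601 and 401 CPM. All 3 values exceeded NC, with replicate 2 the highest. BAD rose by 0.75 ± 0.22 (adjusted p = 0.0223), and by 0.49 without TR11B_KO replicate 2 (adjusted p = 0.0114), but missed the threshold without NC replicate 1 (0.71, 0.0863) or NC replicate 2 (0.70, 0.0916).

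BID, the link from death receptors to mitochondria, was at 95, 96.7 and 114 CPM in NC and 133, 138 and 121 CPM in TR11B_KO. The TR11B_KO libraries lay above NC by a narrow margin. BID gave 0.36 ± 0.17 (adjusted p = 0.122). BIK was rare, at 10 to 49 counts in NC and 35 to 89 in TR11B_KO. Its value of 1.05 ± 0.53 had an adjusted p of 0.155, with a 95% interval of −0.09 to 2.18, so neither a rise nor a fall could be told from none, and its NC counts of 49, 10 and 44 differed widely among themselves. BCL2L11, which encodes the activator BIM, was also rare, at 76 to 123 counts in NC and 63 to 76 in TR11B_KO (−0.29 ± 0.26, adjusted p = 0.437).

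Fold changes in TR11B_KO depended on gene length across the transcriptome. With the tested genes cut into 5 equal groups by length, the shortest, up to 2047 bases, had a median log2 fold change of 0.43, and the longest, from 7154 bases, of −0.31. For OGT_KO against TR11B_KO the same groups gave −0.32 and 0.50, so the direct comparison carried a length trend too. For OGT_KO against NC they gave 0.08 and 0.21. The members' counted lengths ran from 951 bases for BIK, 1224 for BAD and 1462 for BAX to 4248 for PMAIP1 and 7702 for BCL2L11. BAD was thus both short and GC-rich (66.3% GC in its longest transcript), and BBC3 had 69.7% GC. With a per-library offset for length, BAD gave 0.36 (adjusted p = 0.270), and with offsets for length and GC content −0.13 (adjusted p = 0.275), so its call ended and its direction turned. BBC3 kept its call with the length offset (0.99, adjusted p = 0.00286) but not with both offsets (0.41, adjusted p = 0.0904). PMAIP1 passed with either, at 1.22 (adjusted p = 0.00567) and 1.03 (adjusted p = 0.00855), as did the fall of BCL2L1, at −0.52 (adjusted p = 0.0412) and −0.48 (adjusted p = 0.00224). MCL1 passed with either offset, at 0.66 (adjusted p = 0.0224) and 0.80 (adjusted p = 0.000514). BID passed only with both, at 0.59 (adjusted p = 0.0243). The count remained 4 of 10 under each offset, but the called genes differed. How far length and GC content contributed to the values without offsets was not tested.

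**Figure D3:**
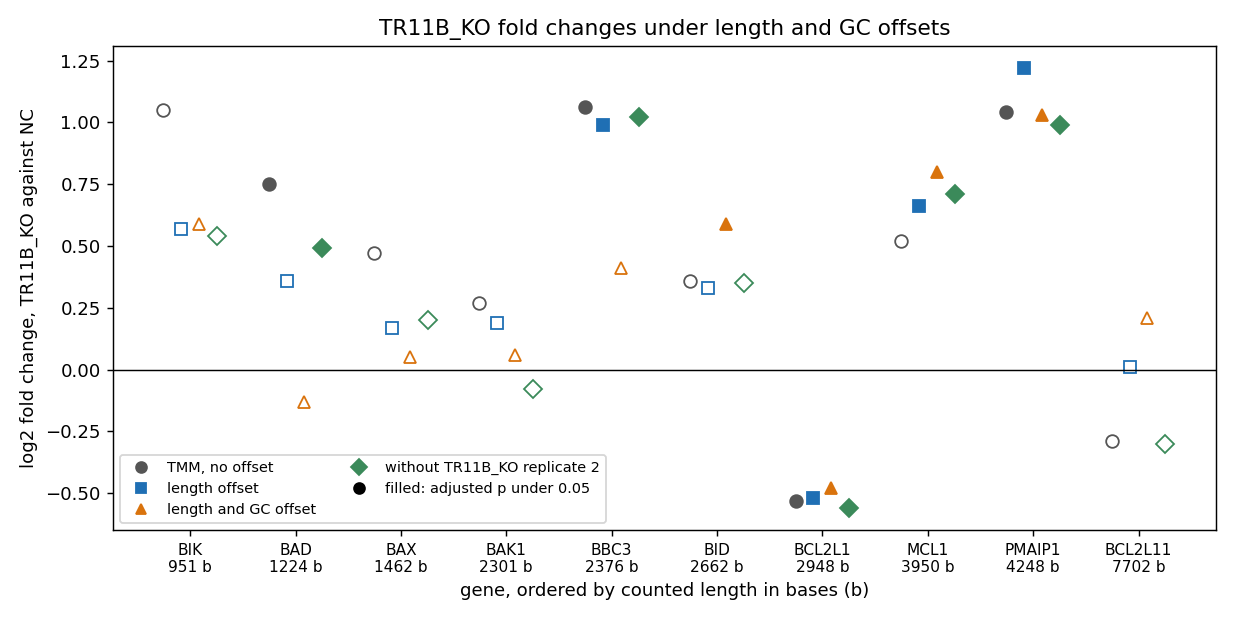
Log2 fold change of each gene in TR11B_KO against NC, with genes ordered by counted length in bases. Circles are the values without offset, squares those with a length offset, triangles those with length and GC offsets and diamonds those without TR11B_KO replicate 2, and filled symbols passed an adjusted p under 0.05. BAD moves from 0.75 to −0.13, while BCL2L1 stays between −0.56 and −0.48 and PMAIP1 between 0.99 and 1.22.

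The knockouts were compared directly to ask where they differ from each other. BCL2L1 was higher in OGT_KO than in TR11B_KO, and MCL1, BAX, BBC3 and BID were lower, so 5 of 10 members were called, 1 higher and 4 lower. Among all tested genes 33.2% were called, 16.7% higher and 16.5% lower (2104 and 2070 genes, or 3084 and 1268 with library totals alone). Groups did not overlap for 7 of 10 members, against 44.9% of all tested genes. The difference in BCL2L1 (622, 575 and 628 CPM against 348, 391 and 352 CPM) was 0.74 ± 0.16, a ratio of 1.67 (adjusted p = 0.00282 in edgeR). It passed in all 21 alternatives, with adjusted p up to 0.0163. BID had 93.8, 69.5 and 82.3 CPM in OGT_KO against 133, 138 and 121 CPM in TR11B_KO, a difference of −0.67 ± 0.17 (adjusted p = 0.00764). Its groups were well apart, and BID passed in 19 of 21 alternatives. Leaving out OGT_KO replicate 2 was among the 2 that ended the call (−0.57, adjusted p = 0.0533).

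The other 3 calls were less stable. BAX differed by −0.68 ± 0.21 (adjusted p = 0.0215) and missed the threshold in 9 of 21 alternatives, among them without OGT_KO replicate 1, 2 or 3 (−0.73, −0.60 and −0.71, adjusted p from 0.0510 to 0.105). MCL1 differed by −0.55 ± 0.20 (adjusted p = 0.0451) and BBC3 by −0.51 ± 0.19 (adjusted p = 0.0476), and these passed in 7 and 5 of 21 alternatives. Leaving out any 1 library other than TR11B_KO replicate 2 ended the MCL1 call, with values from −0.61 to −0.39. The BBC3 call held only without TR11B_KO replicate 1 (−0.66) or 2 (−0.46) among the 9 omissions. With both offsets the BBC3 difference was 0.08 (adjusted p = 0.760). PMAIP1 (−0.66 ± 0.26, adjusted p = 0.0619) and BAK1 (−0.56 ± 0.24, adjusted p = 0.0815) did not pass. BAD (−0.28 ± 0.22, 95% interval −0.75 to 0.19), BIK (−0.85 ± 0.52) and BCL2L11 (0.20 ± 0.26) did not pass either.

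The 10 mRNAs were also taken by functional class, as a description with no test. In FPKM, BCL2L1 and MCL1 made up 30.4%, 30.5% and 24.6% of the members' sum in NC. They held 29%, 31.9% and 27.9% for OGT_KO but 20%, 13.0% and 17.5% for TR11B_KO. The prosurvival share was thus lowest in the 3 TR11B_KO libraries. BAX and BAK1 made up 31.1%, 31.6% and 32.9% for NC, against 24.0%, 24.2% and 24.4% for OGT_KO. TR11B_KO had 31.3%, 35.4% and 30.2%. The effector share was therefore lowest in OGT_KO. The 6 BH3-only genes, most of whose FPKM came from BAD, made up 37.9% to 42.5% in NC, 43.9% to 47.6% in OGT_KO and 48.6% to 52.3% in TR11B_KO. Shares of a sum are not independent of each other, and BAD alone held 31.2% to 45.2%. The FPKM values carry no offset for length or GC content.

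**Figure D4:**
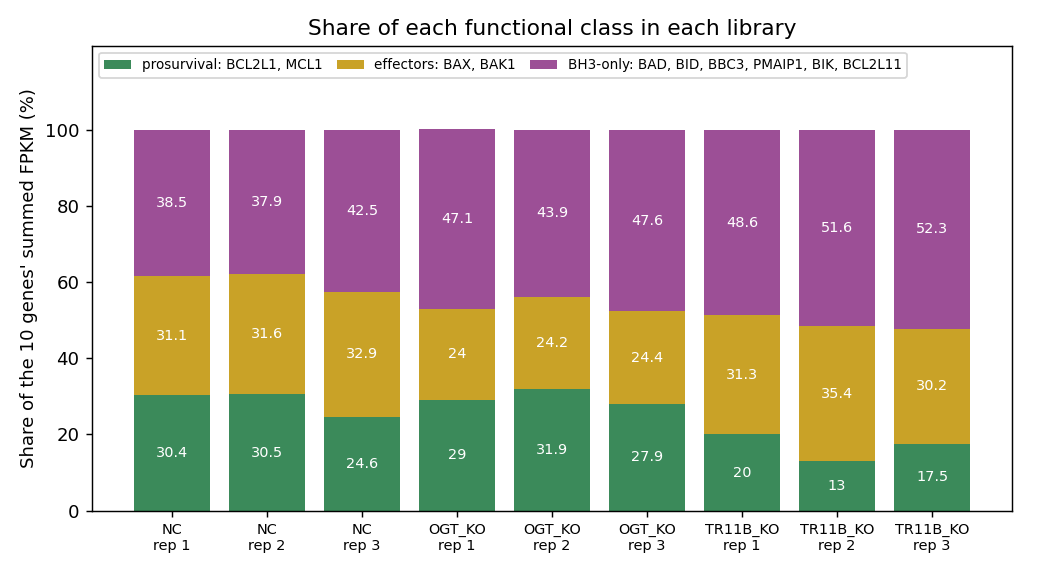
Share of each functional class in the summed FPKM of the 10 genes, as stacked percentages for each of the 9 libraries. The prosurvival share is 13.0% to 20% in TR11B_KO and 24.6% or more elsewhere, and the effector share is 24.0% to 24.4% in OGT_KO and 30.2% or more elsewhere.

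Of 13 other BCL2 family genes listed, 11 were in the tables and 8 were tested. In OGT_KO 1 was higher and 1 lower, and in TR11B_KO likewise 1 and 1. These counts are to be read against 18.3% and 27.6% of all tested genes called in OGT_KO and TR11B_KO. BNIP3L, a mitophagy receptor, rose in both, from 2.64 to 3.39 CPM in NC to 5.23 to 6.55 CPM in OGT_KO (1.02 ± 0.22, adjusted p = 0.00650 in edgeR) and to 4.64 to 5.36 CPM in TR11B_KO (0.79 ± 0.22, adjusted p = 0.0173). The TR11B_KO call of BNIP3L was lost without NC replicate 2 (0.72, adjusted p = 0.0900) or 3 (0.75, 0.0578). BCL2L12 fell in OGT_KO by 0.81 ± 0.15 (adjusted p = 0.00243), from 134 to 136 CPM down to 71.0 to 80.8 CPM. BCL2L13 fell in TR11B_KO by 0.86 ± 0.25 (adjusted p = 0.0232), a call lost in 7 of 21 alternatives, among them without NC replicate 1 (−0.81), NC replicate 2 (−0.74) or TR11B_KO replicate 3 (−0.90). BCL2, the founding prosurvival gene, was low in every library, at 2.57 to 4.90 CPM, and BCL2L2, which encodes BCL-W, lay at 5.50 to 15.0 CPM. BOK, an effector relative of BAX, was abundant at 403 to 971 CPM, with the highest value in TR11B_KO replicate 2. BNIP3 lay at 13.5 to 34.8 CPM and BMF at 0.999 to 1.96 CPM. None of these 5 was called in either knockout against NC. BCL2A1, HRK and BCL2L15 had too few counts to be tested.

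Downstream of the mitochondria, 19 genes of the apoptosome, the caspases and their inhibitors were tested. In OGT_KO 1 was higher and 2 were lower, and in TR11B_KO 4 were higher and 2 lower. Of all tested genes 18.3% and 27.6% were called. The 19 listed genes had median log2 fold changes of −0.13 and 0.32, where all tested genes had 0.03 and −0.01. In TR11B_KO, HTRA2, a protease released from mitochondria that inactivates inhibitors of apoptosis, rose by 0.88 ± 0.17 (adjusted p = 0.00199 in edgeR). BIRC2 (cIAP1), itself such an inhibitor, rose by 1.11 ± 0.25 (adjusted p = 0.00496). The HTRA2 and BIRC2 calls held in all 21 alternatives. ENDOG, a mitochondrial nuclease of 1370 counted bases, rose by 1.04 ± 0.26 (adjusted p = 0.0103) with a value of 0.13 at the lowest of its alternatives, and missed the threshold without NC replicate 1 (0.99, adjusted p = 0.0501) or 2 (0.94, 0.0578). BIRC3 (cIAP2) rose in OGT_KO by 1.30 ± 0.33 (adjusted p = 0.0140), a call lost without NC replicate 1 or 2 or OGT_KO replicate 1 or 2 (1.20 to 1.30, adjusted p from 0.0509 to 0.0688), and its TR11B_KO value of 0.94 ± 0.33 (adjusted p = 0.0455) was called in only 8 of 21 alternatives, with 0.40 without TR11B_KO replicate 2.

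Of 13 genes of death receptor signalling upstream of BID, 10 were tested, and 1 was higher and 1 lower in each knockout. The called shares of all tested genes were 18.3% in OGT_KO and 27.6% in TR11B_KO. FADD, the adaptor that recruits caspase-8, was at 59.7 to 64.5 CPM in NC. It fell in OGT_KO to 39.8 to 46.6 CPM (−0.51 ± 0.15, adjusted p = 0.0350 in edgeR, lost in 12 of 21 alternatives, which include leaving out any 1 NC or OGT_KO library) and rose in TR11B_KO to 100 to 112 CPM (0.77 ± 0.15, adjusted p = 0.00305). The direct difference was −1.27 ± 0.16 (adjusted p = 5.95e-05). TNFRSF10B, a TRAIL receptor, fell in TR11B_KO by 0.86 ± 0.20 (adjusted p = 0.00631). FAS rose in OGT_KO by 2.41 ± 0.59 (adjusted p = 0.0126) but reached only 1.14 CPM, and its call was lost without NC replicate 2 or 3 or OGT_KO replicate 1 or 2 (2.10 to 2.36).

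Of 13 transcription factors known to act on member genes, 2 were higher and 2 lower in OGT_KO, and 0 were higher and 2 lower in TR11B_KO. Over all tested genes 18.3% and 27.6% were called. MYC fell in both knockouts, by 1.46 ± 0.31 (adjusted p = 0.00523 in edgeR) in OGT_KO and by 1.73 ± 0.31 (adjusted p = 0.00147) in TR11B_KO. JUN fell in OGT_KO by 0.76 ± 0.16 (adjusted p = 0.00544), and FOXO1 rose there by 1.76 ± 0.54 (adjusted p = 0.0362) from at most 0.283 CPM, a call lost without any 1 NC library or OGT_KO replicate 2 or 3 (1.55 to 1.89).

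Among 13 ubiquitin ligases, deubiquitinases and partners of member proteins, 1 was higher and 1 lower in OGT_KO, and 1 higher and 2 lower in TR11B_KO. For all tested genes the called shares were 18.3% and 27.6%. USP9X, a deubiquitinase that stabilises the MCL1 protein, rose in OGT_KO by 0.81 ± 0.24 (adjusted p = 0.0293 in edgeR) and fell in TR11B_KO by 0.95 ± 0.24 (adjusted p = 0.0103). The first of these USP9X calls was lost without NC replicate 1 or 3 or OGT_KO replicate 1 or 2 (0.58 to 0.86), and the second without NC replicate 2 (−0.81). DYNLL1, a dynein light chain that binds BIM, fell in OGT_KO by 0.70 ± 0.21 (adjusted p = 0.0337) and rose in TR11B_KO by 0.74 ± 0.21 (adjusted p = 0.0198), and each DYNLL1 call held in 10 of 21 alternatives, with neither holding without any 1 NC library. USP9X, with 12631 counted bases, and DYNLL1, with 940, lie at the ends of the length range along which TR11B_KO shifted. HUWE1, a ligase of MCL1, fell in TR11B_KO by 1.00 ± 0.34 (adjusted p = 0.0438), although its groups overlapped and the call held in only 5 of 21 alternatives. Without TR11B_KO replicate 2 the HUWE1 value was −0.72 (adjusted p = 0.348 in edgeR).

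For each member called in a knockout, the most alike of 7013 other genes was sought by the root mean square difference of centred log2 CPM over the 9 libraries. BCL2L1 lay nearest to NOMO1 (0.083), a gene with near-identical copies whose counts are uncertain, and to ACAD10 (0.087). BBC3 lay nearest to ACSF3 (0.083), and BAD to TEX264 (0.057) and ZNF775 (0.063). PMAIP1 had no such close companion, the nearest being B3GNT4 (0.181) and PAPLN-AS1 (0.185). With 168 to 402 counts per library, PMAIP1 had the fewest counts of these members, and how far this widened its distances was not tested.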

How the data were processed

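The members and gene lists were chosen with earlier results of these data known. The authors deposited whole-number read counts per gene, without normalization, and FPKM values, which divide each count by gene length and by library total. The submitters' processing notes name HTSeq, HISAT, fastp, DESeq2 and R 3.2.0, and the build GRCh38, with no role or setting given. The counted gene length was derived from count over FPKM (whole to 0.01 base in 17919 of 17923 genes). The analysis of counts used edgeR 4.0.16 (R 4.3.3). Of 19257 genes, filterByExpr kept 12574, all 10 members included. After TMM scaling, a robust quasi-likelihood model with a mean for each group was fitted over the 9 libraries together, and contrasts were tested by F. P-values were adjusted by Benjamini-Hochberg over all tested genes and called under 0.05. The SE is the absolute log2 fold change over the square root of F. The biological coefficient of variation was 0.241. Offsets were lowess curves per library (span 0.3) on length and on GC content of the longest GENCODE v29 transcript, found for 93.3% of tested genes. Named list genes were the up to 4 called genes per list with the smallest adjusted p in either knockout against NC, and all tested BCL2 family genes. The most alike genes needed an average log2 CPM of at least 2. Alternatives used DESeq2 1.42.0, limma 3.58.1 on log2(FPKM + pseudocount) and the settings in the closing section. The fits were tested on simulated data with a common spread for all genes and libraries and no length or GC trend. That simulation cannot say how the fits behave with the uneven spread and length trend seen here. Replicate pairs differed by a chi-square per degree of freedom of 9.54 or more, so no library repeats another. Gene positions are those of RefSeq on GRCh38.p14. Some listed genes and 1 gene list are not reported here.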

Additional observations from a re-analysis of the deposited data

How the results depend on the processing

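Each value was recomputed under 21 alternatives, 12 of them settings and 9 leaving out 1 library (fewer for some low genes, such as BCL2L11 with 19, which a filter removed). Of the members' recomputed fold changes, 505 kept their direction and side of the threshold, 54 lost a call, 42 gained one and 23 changed sign. Of those of other listed genes that were called, 694 kept it, 214 lost it and 0 changed sign. In OGT_KO against NC, where no member was called, 1 was called by DESeq2, with the CPM filter, with the length offset and by limma on log2(FPKM + 1) without filter. There were 2 with library totals alone or both offsets, 3 by limma with either pseudocount and 4 in a fit of only those 2 groups, which called 5095 genes in place of 2303. In TR11B_KO against NC, such a fit called 2 members in place of 4, and 2251 genes in place of 3469. Between the knockouts, where 5 were called, library totals alone gave 2, the fit of only the 2 groups 3, limma on log2(FPKM + 1) 3, on log2(FPKM + 0.1) 2, and without filter 1. Leaving out 1 library gave 0 to 2 members in OGT_KO (1072 to 4536 genes), 1 to 6 in TR11B_KO (1813 to 4463 genes) and 1 to 7 between the knockouts (2401 to 5307 genes). Without NC replicate 1 or NC replicate 2, only BBC3 was called in TR11B_KO, and without OGT_KO replicate 2 only BCL2L1 between the knockouts.

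Same-numbered libraries did not deviate together: all 9 correlations were between −0.199 and 0.069, and 0 libraries correlated best with their own number. With the replicate block, 0, 3 and 2 members were called in the 3 comparisons, with BCL2L1 in TR11B_KO at −0.53 (adjusted p = 0.0601).

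Signs changed as follows, all but the last without a call. In OGT_KO, MCL1 gave 0.09 with library totals, 0.00 with both offsets and 0.07, 0.08 and 0.07 in the limma fits, and BCL2L11 gave 0.03 with library totals and 0.01 by limma without filter. Leaving out 1 library gave −0.09 to 0.06 for MCL1, −0.21 to 0.11 for BCL2L11 and −0.25 to 0.51 for BIK there, and −0.08 to 0.53 for BAK1 in TR11B_KO. In TR11B_KO, BCL2L11 gave 0.01 with the length offset and 0.21 with both, and BAD −0.13 with both. Between the knockouts, BCL2L11 gave −0.21 and −0.38 with those offsets, BBC3 0.08 with both, and BAD 0.01 with library totals, 0.02 with the length offset, 0.03 in each limma fit and 0.50 with both offsets (adjusted p = 0.000739). The causes were not tested. Library totals moved the median log2 fold change of all genes to 0.147, −0.152 and 0.314 in the 3 comparisons, from 0.032, −0.01 and 0.056. Scaling FPKM by TMM moved 7 of 30 group means by more than their SD, among them BCL2L1 in OGT_KO (206) and TR11B_KO (123). BIK and BCL2L11 had at most 123 counts in a library, and how far depth limited their tests was not tested.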
